A study of Mus musculus with 15 samples.

Results

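S100 proteins and galectins were followed across regulatory and conventional CD4 T cells of mouse spleen, with and without a knockout of Hpgd aimed at regulatory T cells. The 9 genes described are S100a4, S100a6, S100a10, S100a11, S100a13, Lgals1, Lgals3, Lgals8 and Lgals9, out of 17594 genes in the deposited table. They were picked by symbol and by presence in that table. The rule names no comparison, but the symbols were picked with earlier results of these data known, so counts over the 9 genes describe them and are no test of the families. RNA was sequenced from splenic regulatory T cells (Treg, the cells that Foxp3 defines) and conventional CD4+ T cells (Tconv), isolated by sorting, all on the C57BL/6 strain background. Animals labelled HPGD KO (KO) combined a conditional allele of Hpgd, whose enzyme inactivates prostaglandin E2, with the FOXP3-Cre-YFP driver. That driver acts in cells that express Foxp3, so Tconv of KO animals are not its target. Control animals are labelled wild-type (WT), and whether they carried the Cre driver, the age of the animals and any pooling are not given in the labels. There were 4 Treg KO, 4 Treg WT, 4 Tconv KO and 3 Tconv WT libraries. The comparisons ask what the loss of Hpgd in Treg goes with in Treg themselves and in Tconv of the same kind of animal.

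S100 proteins are small calcium-binding proteins of the EF-hand type. Most form dimers that change shape on binding calcium and then attach to annexins, cytoskeletal proteins and other partners inside the cell, and several are also released and act on receptors such as RAGE (Ager). Galectins are lectins that bind galactose-containing sugars on glycoproteins. They lack a signal sequence, are found in the cytosol and nucleus and outside the cell, and when outside they cross-link glycoproteins on T cells. In T cells, S100a4, S100a6, S100a10, S100a11, Lgals1 and Lgals3 are widely used as markers of antigen-experienced and tissue-homing cells, and galectin-1 is known as a molecule that Treg use in suppression.

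In Treg of KO animals, S100a4 and Lgals3 stood at 2.75 and 2.74 times their WT level on the scale of log2(normalized count + 1), and Lgals1 stood at 1.81 times. S100a10 and S100a13 were higher by smaller amounts. S100a6, which lies close to S100a4 on the chromosome, S100a11 and Lgals9 did not pass the test, and neither did Lgals8, whose small difference missed the threshold. In Tconv, none of the 9 genes passed, where 0.681% of all genes did, against 21.5% in Treg. The genotype effect was not shown to differ between Treg and Tconv for any member. Genotype, sex and sample run also cannot be told apart. In WT animals S100a6 was lower in Treg than in Tconv under every processing tried. S100a4 and Lgals3 were lower there too, in calls that other settings or the loss of 1 library could end. In KO animals the S100a4 and Lgals3 levels of Treg and Tconv overlapped, while S100a6 was still lower in Treg.

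The 5 S100 genes lie on the same strand of chromosome 3 (GENCODE vM21, GRCm38). S100a13 spans chr3:90514435-90524581, S100a4 chr3:90603771-90606045, S100a6 chr3:90612882-90624181, S100a11 chr3:93520488-93526287 and S100a10 chr3:93555080-93564643. S100a4 and S100a6 are 6.84 kb apart, and S100a11 and S100a10 are 28.79 kb apart. The galectin genes are scattered, with Lgals1 at chr15:78926725-78930465, Lgals3 at chr14:47367751-47386160, Lgals8 at chr13:12439415-12464944 and Lgals9 at chr11:78962974-78984946. S100a4 shares 302 exon bases with the predicted gene Gm42674 on the same strand, and Lgals8 shares 155 with Heatr1 on the opposite strand. Annotated pseudogenes exist for S100a11 and Lgals1. The sources used here do not say how the authors' counting treated reads that match more than 1 gene or whether it used strand, so these members carry that uncertainty.

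S100a4 and S100a6 lie close together and differ in whether they passed in Treg, and the 250 bases before their transcript starts are shown for that reason (RefSeq, GRCm38.p6, plus strand, 5′ to 3′). The S100a4 stretch is chr3:90603520-90603769 and the S100a6 stretch is chr3:90612644-90612893. Capitals mark matches to the motifs searched.
S100a4: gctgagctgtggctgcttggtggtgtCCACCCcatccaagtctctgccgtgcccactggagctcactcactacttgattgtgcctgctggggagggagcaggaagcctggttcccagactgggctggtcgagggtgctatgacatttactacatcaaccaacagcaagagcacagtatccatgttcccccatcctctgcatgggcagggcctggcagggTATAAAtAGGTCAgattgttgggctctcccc
S100a6: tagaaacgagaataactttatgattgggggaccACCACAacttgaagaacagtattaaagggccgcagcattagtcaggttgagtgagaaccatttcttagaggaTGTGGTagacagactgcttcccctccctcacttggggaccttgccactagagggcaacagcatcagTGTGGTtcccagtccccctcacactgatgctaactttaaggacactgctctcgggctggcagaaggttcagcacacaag
Motifs were searched on both strands as the letters TATAAA (TBP), GGGCGG (GC box), TGANTCA (AP-1), TGACG (CRE core), TAAACA (forkhead), TGTGGT (RUNX), CCACCC (KLF and SP proteins) and AGGTCA (nuclear receptors), and no matches overlapped in these stretches. The S100a4 stretch held TATAAA at positions -31 to -26 counted from the transcript start, AGGTCA at -24 to -19 and CCACCC at -224 to -219. The S100a6 stretch held TGTGGT 3 times, at -217 to -212 on the minus strand and at -145 to -140 and -79 to -74 on the plus strand, and no TATAAA. Of 32851 mouse promoter stretches of that length, 12.368% held TATAAA, 14.024% AGGTCA, 28.075% CCACCC and 14.045% TGTGGT. The other motifs stood in 32.742% (GGGCGG), 6.749% (TGANTCA), 17.765% (TGACG) and 12.03% (TAAACA) of stretches, and in neither of the 2 shown. In all, 7 of the 9 members have a promoter stretch in the RefSeq table, and S100a10 and Lgals1 were not analysed here. A match is a string of letters, not a shown binding site.

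Values below are normalized counts, the authors' gene counts divided by a size factor for each library, and each list of values runs from replicate 1 upward. Libraries held between 2.64 and 4.71 M reads (mega-reads assigned to genes) in Treg KO, 6.43 and 10.0 in Treg WT, 2.95 and 10.3 in Tconv KO, and 6.60 and 11.1 in Tconv WT. Foxp3 lay between 3314 and 4590 in Treg KO and between 4006 and 4800 in Treg WT, against 18.9 to 69.5 in Tconv KO and 14.4 to 20.6 in Tconv WT, so the cell type labels held. Hpgd had 0 reads in Treg KO and 1 read in Treg WT, so its level cannot check the genotype labels. In Treg KO 0 reads allow up to 0.193 reads per M reads, a limit that covers counting error only. Ddx3y, a gene of the Y chromosome, had 0 reads in all 8 KO libraries and reads in all 7 WT libraries. The sample numbers of KO and WT libraries also form separate runs. Genotype, sex and sample run therefore cannot be told apart in any KO against WT comparison below. Replicate 1 of Treg KO held the group's highest value for 7 of the 9 genes and replicate 1 of Tconv KO for 6, so the members' fold changes are also given without them. Because these are bulk samples, more RNA per cell and more cells of a kind cannot be told apart.

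S100a10 had the highest level per kilobase of annotated exon in Treg, with 1399 ± 151 normalized counts per kb in Treg KO (SD, n = 4) and 1039 ± 53.3 in Treg WT (SD, n = 4). In Treg KO the order then ran S100a4 (978 ± 319), S100a11 (905 ± 239), Lgals1 (754 ± 129), Lgals9 (388 ± 37.4), S100a13 (317 ± 33.6), Lgals8 (176 ± 9.02), S100a6 (154 ± 43.4) and Lgals3 (18.6 ± 2.85). The ranges of mean ± SD of S100a4, S100a11 and Lgals1 overlapped there, as did those of Lgals8 and S100a6. In Treg WT the order after S100a10 was S100a11 (674 ± 92.1), Lgals1 (416 ± 65.4), Lgals9 (368 ± 15.6), S100a4 (340 ± 10.3), S100a13 (233 ± 6.74), Lgals8 (150 ± 7.28), S100a6 (124 ± 11.2) and Lgals3 (6.72 ± 2.31). S100a4 thus stood below Lgals1 and near Lgals9 in Treg WT. In Tconv KO, S100a10 (990 ± 175), S100a11 (984 ± 535) and S100a4 (929 ± 334) could not be separated. In Tconv WT the ranges of S100a11 (899 ± 64.6) and S100a10 (841 ± 57.4) overlapped. Some of these orders depend on the length used. Per kilobase of the longest transcript, S100a6 stood above Lgals8 in Treg KO (270 against 229), as in Treg WT (216 against 194), and Lgals9 stood above Lgals1 in Treg WT (496 against 470). On that scale S100a10 had the higher mean in both Tconv groups. It stood at 1751 against 984 for S100a11 in Tconv KO and at 1488 against 899 in Tconv WT. These values are means alone, and an SD is the same percent of its mean on either scale. It was 28.1% for S100a6 in Treg KO, 15.7% for Lgals1 in Treg WT and 54.4% for S100a11 in Tconv KO. The orders in those groups are therefore not read as separated.

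**Figure D1:**
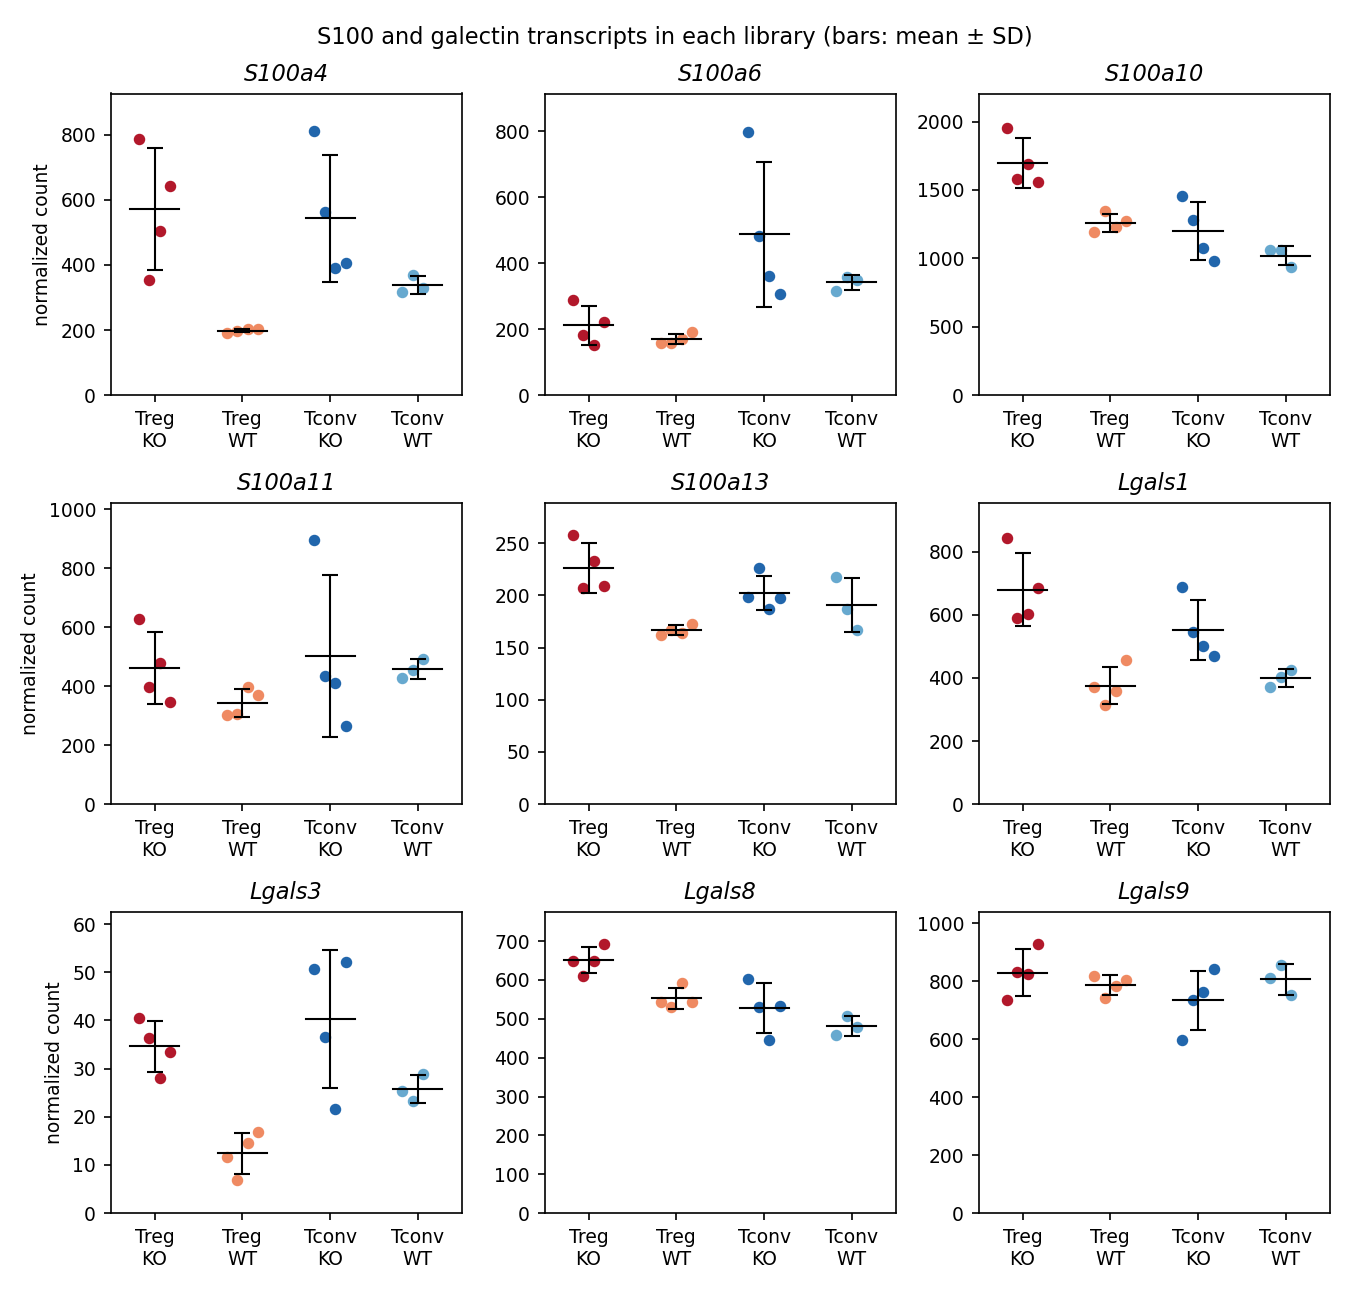
Normalized counts (y axis, linear and starting at 0) of the 9 genes, 1 panel per gene, in Treg KO, Treg WT, Tconv KO and Tconv WT from left to right; points are libraries and bars are group means with SD. S100a4 lies between 353 and 788 in Treg KO, above every Treg WT library (191 to 203), whereas Lgals9 overlaps between all groups.

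The first comparison set Treg KO against Treg WT. Across all 11314 genes tested, 21.5% passed (limma, Benjamini-Hochberg adjusted p under 0.05), 10.4% as higher in KO and 11.1% as lower. Of the 9 genes, 5 were higher (S100a4, S100a10, S100a13, Lgals1 and Lgals3), 0 were lower and 4 did not pass. By edgeR 5 passed, against 21.6% of all genes, and by DESeq2 6, with Lgals8 as the added one, against 24.6%. In 6 of 9, among them Lgals8, every Treg KO library lay above every Treg WT library, which was so for 13.2% of all genes. The median log2 fold change was 0.42 over the 9 genes and 0.00 over all genes.

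S100a4, also called fibroblast-specific protein or metastasin, binds non-muscle myosin and is known for its part in cell movement. It had 788, 353, 504 and 641 normalized counts in Treg KO, against 191, 197, 203 and 203 in Treg WT. The WT libraries were nearly level and the KO libraries spread widely, and the groups did not overlap. The log2 fold change was 1.46 ± 0.23 (SE; limma, adjusted p = 8.5e-04). Without Treg KO replicate 1 it was 1.29, and it passed in all 30 alternative ways of processing.

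S100a6 (calcyclin), a partner of the Cacybp and Sugt1 proteins and of annexins, had 289, 183, 151 and 222 normalized counts in Treg KO, against 158, 157, 171 and 190 in Treg WT. The groups overlapped, and replicate 1 of Treg KO was the highest. Its log2 fold change of 0.28 ± 0.24 did not pass (limma, adjusted p = 0.41), and it was 0.12 without that library. With each library's trend on annotated exon length removed it was 0.47 (adjusted p = 0.17, limma).

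The ratio of S100a4 to S100a6 does not depend on how a library is scaled. It was 2.73, 1.93, 3.34 and 2.89 in Treg KO, against 1.20, 1.26, 1.19 and 1.07 in Treg WT. In Tconv KO it was 1.02, 1.16, 1.08 and 1.32, against 1.0, 1.03 and 0.94 in Tconv WT. Treg KO libraries thus stood apart from all 11 others. The ratio was chosen after its values were seen and was not tested.

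**Figure D2:**
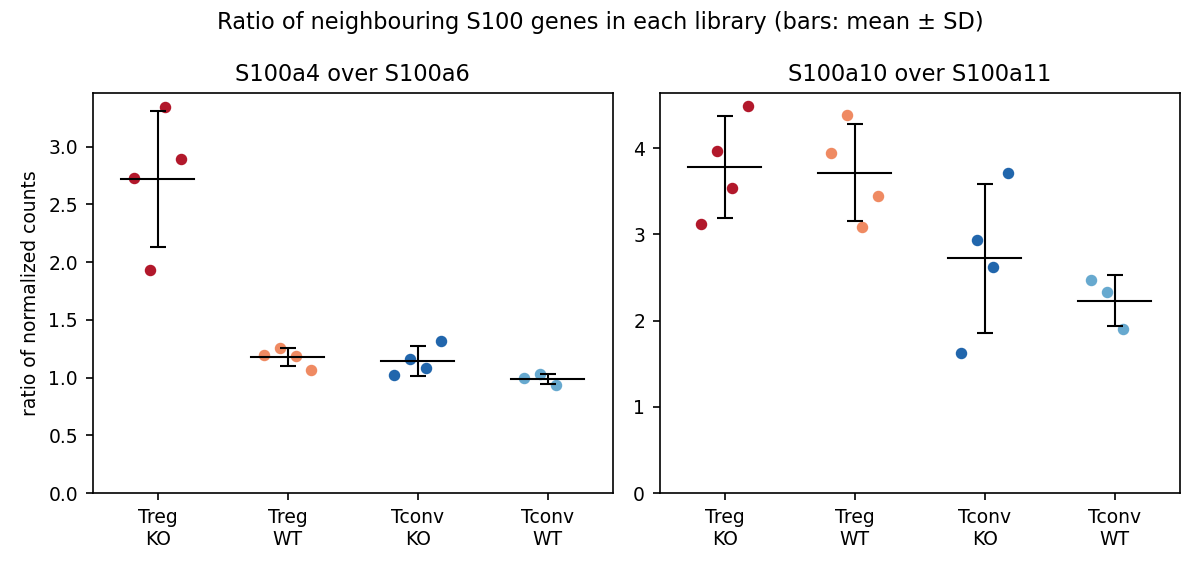
Ratio of normalized counts (y axis, no unit) in each library for S100a4 over S100a6 and for S100a10 over S100a11, with Treg KO, Treg WT, Tconv KO and Tconv WT from left to right; bars are group means with SD. The S100a4 to S100a6 ratio is at least 1.93 in every Treg KO library and at most 1.32 in every other library, and the S100a10 to S100a11 ratio overlaps between Treg KO and Treg WT.

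S100a10 (p11), which pairs with annexin A2 and brings membrane proteins to the cell surface, had 1954, 1578, 1691 and 1557 normalized counts in Treg KO, against 1192, 1343, 1230 and 1272 in Treg WT. The groups did not overlap. The log2 fold change was 0.42 ± 0.11 (limma, adjusted p = 0.013). Without Treg KO replicate 1 it was 0.35 (adjusted p = 0.035, limma), and with the trend on exon length removed it was 0.63. S100a11, a relative that binds annexin A1, had 627, 398, 478 and 346 normalized counts in Treg KO, against 303, 307, 398 and 369 in Treg WT. These values overlapped, with the highest again in Treg KO replicate 1, and the log2 fold change of 0.40 ± 0.27 did not pass (limma, adjusted p = 0.30). It was 0.24 without that library and 0.71 with the length trend removed (adjusted p = 0.10, limma). The estimates for S100a10 and S100a11 were thus of like size, and the spread of S100a11 was larger.

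S100a13, which takes part in the export of proteins that lack a signal sequence, had 258, 207, 233 and 209 normalized counts in Treg KO, against 162, 167, 164 and 173 in Treg WT. The groups did not overlap, and the log2 fold change was 0.44 ± 0.10 (limma, adjusted p = 0.0076). Without Treg KO replicate 1 it was 0.37 (adjusted p = 0.021, limma). With the length trend removed it was 0.72.

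Lgals1 encodes galectin-1, a small galectin that works as a dimer and can bring on death or silencing of effector T cells. It had 843, 590, 603 and 686 normalized counts in Treg KO, against 371, 315, 360 and 457 in Treg WT. The groups did not overlap, and the log2 fold change was 0.85 ± 0.14 (limma, adjusted p = 0.0010). Without Treg KO replicate 1 it was 0.75.

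Lgals3 encodes galectin-3, which forms larger assemblies and lattices on glycoproteins. It was the least abundant member, with 40.6, 36.4, 28.0 and 33.4 normalized counts in Treg KO, against 11.6, 6.90, 14.5 and 16.8 in Treg WT. These values rest on 96 reads over the 4 Treg KO libraries and 71 reads over the 4 Treg WT libraries. The groups did not overlap, and the log2 fold change was 1.45 ± 0.29 (limma, adjusted p = 0.0042). When all libraries were thinned to the same depth it was 1.17 with an adjusted p of 0.049 (limma). Without Treg KO replicate 1 it was 1.37 (adjusted p = 0.011, limma).

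Lgals8 and Lgals9 encode galectins with a pair of different sugar-binding domains on 1 chain. Galectin-8 marks damaged endosomes, and galectin-9 is known as a ligand of the receptor TIM-3 (Havcr2). Lgals8 had 648, 611, 649 and 693 normalized counts in Treg KO, against 544, 531, 592 and 544 in Treg WT. The groups did not overlap, but the difference was small, with a log2 fold change of 0.23 ± 0.08 (limma, adjusted p = 0.053). It was 0.12 with the trend on GC content removed. It passed in 8 of 30 alternatives. Of these, 4 change the method: DESeq2 (adjusted p = 0.022), quantile normalization (0.044, limma), a filter on means of at least 50 (0.048, limma) and the length trend removed (0.034, limma). The other 4 leave out Treg KO replicate 2 (adjusted p = 0.044, limma), Tconv KO replicate 1 (0.030), Tconv KO replicate 3 (0.027) or replicate 1 of both KO groups (0.046). Lgals9 had 734, 832, 823 and 929 normalized counts in Treg KO, against 818, 741, 785 and 803 in Treg WT. These overlapped, and the log2 fold change was 0.07 ± 0.10 (limma, adjusted p = 0.61). Without Treg KO replicate 1 Lgals8 was at 0.23 (adjusted p = 0.080, limma) and Lgals9 at 0.13 (0.36).

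**Figure D3:**
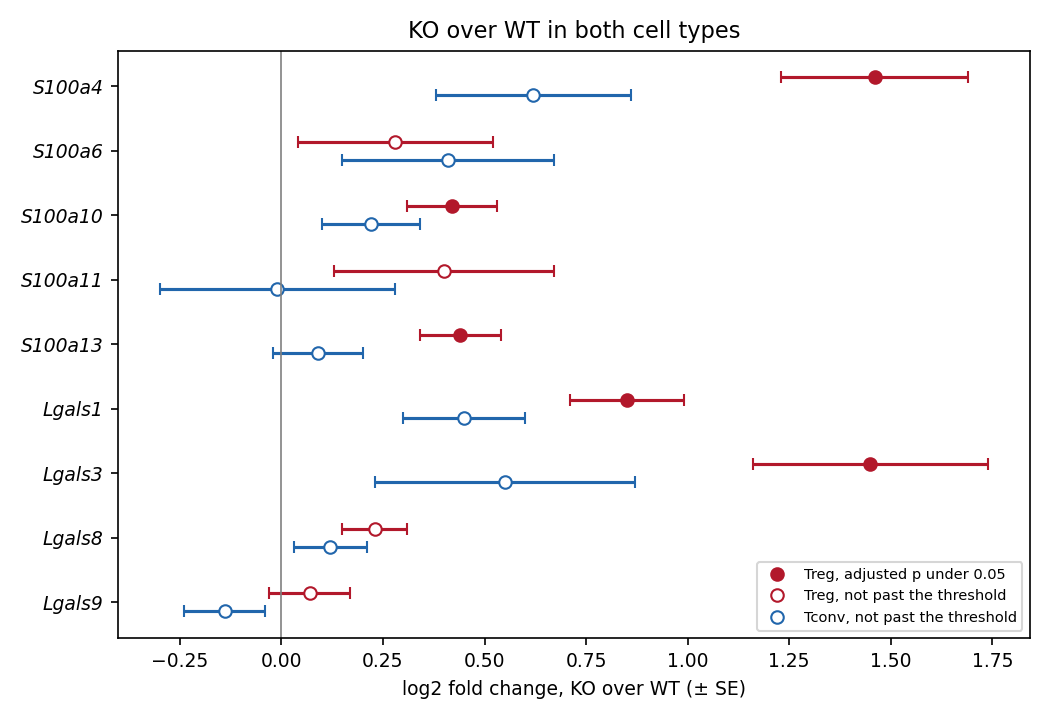
Log2 fold change of KO over WT (x axis, on the log2(normalized count + 1) scale) for each of the 9 genes, in Treg and in Tconv; bars are standard errors and filled points have an adjusted p under 0.05. S100a4 and Lgals3 have the highest Treg values (1.46 and 1.45), and no Tconv point passes.

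Markers of other cells were read beside these differences. The 3 T cell markers in the table summed to between 11480 and 13128 in Treg KO and between 9932 and 10144 in Treg WT. Of these, Cd4 and Cd3g were higher in KO, by 0.37 ± 0.09 and 0.35 ± 0.08, and Cd3e did not pass. The summed level of 8 B cell markers was between 290 and 421 in Treg KO and between 165 and 263 in Treg WT, and of the 4 tested H2-Eb1 and H2-Aa were higher in KO. The sum of 11 myeloid markers lay between 166 and 279 in Treg KO and between 242 and 265 in Treg WT, most of it Cst3 (means of 207 in Treg KO and 211 in Treg WT). Cd68, a lysosomal protein of macrophages, averaged 18.4 ± 6.80 in Treg KO and 26.0 ± 4.19 in Treg WT (SD, n = 4 each) and did not pass (-0.54 ± 0.31; limma, adjusted p = 0.23). Cd14 and Csf1r were at 0 in every Treg KO library and reached 0.887 and 18.6 in Treg WT, and S100a8 and S100a9 were at most 2.67 and 1.45 in Treg KO. The 8 CD8 T and NK cell markers summed to between 206 and 245 in Treg KO and between 193 and 257 in Treg WT. Of the 6 tested, Prf1 was lower in KO (-0.78 ± 0.23; limma, adjusted p = 0.028) and 5 did not pass. The 7 erythroid and platelet markers summed to between 10.8 and 21.4 in Treg KO and between 21.2 and 30.1 in Treg WT. Most of it was Itga2b, the 1 gene of them tested, which was lower in KO (means of 7.72 against 21.9). The others were too low to test and went both ways. Hba-a1 averaged 3.47 in Treg KO and 0.760 in Treg WT, Hba-a2 1.90 and 0.222, and Alas2 0.910 and 2.66. The part of these cells in the members' differences was not tested.

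The second comparison set Tconv KO against Tconv WT. Here 0.681% of the genes tested passed (limma, adjusted p under 0.05), and 0 of the 9 members did. By edgeR and by DESeq2 0 of 9 passed as well, against 0.822% and 2.09% of all genes. In 2 of 9, S100a4 and Lgals1, the groups did not overlap, with KO above WT, against 7.79% of all genes. The median log2 fold change was 0.22 over the 9 genes and 0.00 over all genes.

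S100a4 had 811, 562, 390 and 407 normalized counts in Tconv KO, against 318, 370 and 329 in Tconv WT. The KO libraries were all higher, and replicate 1 was the highest of all 15 libraries. The log2 fold change was 0.62 ± 0.24 (limma, adjusted p = 0.33), and 0.40 without that library. Lgals1 had 687, 546, 501 and 471 normalized counts in Tconv KO, against 371, 404 and 425 in Tconv WT, with a log2 fold change of 0.45 ± 0.15 (limma, adjusted p = 0.22). Its lowest KO library stood above its highest WT library. Without Tconv KO replicate 1 it was 0.34 (adjusted p = 0.41, limma).

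S100a6 had 799, 484, 361 and 308 normalized counts in Tconv KO, against 317, 359 and 350 in Tconv WT, and S100a11 had 897, 436, 412 and 265 in Tconv KO, against 428, 456 and 494 in Tconv WT. In both genes replicate 1 of Tconv KO was the highest of all libraries, and the groups overlapped. Without that library the log2 fold change of S100a6 was 0.14, against 0.41 ± 0.26 with it (limma, adjusted p = 0.53), and that of S100a11 was -0.34 (adjusted p = 0.60). Lgals3 had 50.7, 36.5, 21.7 and 52.2 normalized counts in Tconv KO, against 25.3, 23.2 and 28.9 in Tconv WT, and its log2 fold change was 0.55 ± 0.32 (limma, adjusted p = 0.50), or 0.42 without replicate 1.

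S100a10 had 1458, 1279, 1078 and 983 normalized counts in Tconv KO, against 1058, 1061 and 939 in Tconv WT. S100a13 had 199, 226, 187 and 198 in Tconv KO, against 218, 187 and 167 in Tconv WT. Both overlapped between the groups. Lgals8 had 603, 529, 446 and 533 normalized counts in Tconv KO, against 458, 507 and 479 in Tconv WT. Lgals9 had 596, 736, 761 and 842 in Tconv KO, against 812, 856 and 751 in Tconv WT. Their log2 fold changes were 0.22 ± 0.12 for S100a10, 0.09 ± 0.11 for S100a13, 0.12 ± 0.09 for Lgals8 and -0.14 ± 0.10 for Lgals9, none of which passed. Without Tconv KO replicate 1 they were 0.12 for S100a10, 0.10 for S100a13, 0.06 for Lgals8 and -0.05 for Lgals9. In replicate 1 of Tconv KO some, but not all, marker lists had their group's highest sum. The 4 Treg markers summed to 4062 there, against 640 to 1778 in the other Tconv KO libraries, the CD8 T and NK cell markers to 1321, against 706 to 882, and the B cell markers to 348, against 73.9 to 162. The myeloid sum was 191 there, against 195 to 243, and the erythroid and platelet sum 19.2, against 14.8 to 28.9. Their part in the members' values was not tested.

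The difference between the genotype effect in Treg and that in Tconv was tested as an interaction. Across all genes 0.150% passed (limma, adjusted p under 0.05), and 0 of the 9 members did. By edgeR and DESeq2 0 members passed as well, against 0.150% and 0.778% of all genes. The interaction was 0.85 ± 0.33 on the log2 scale for S100a4 (limma, adjusted p = 0.50), 0.90 ± 0.43 for Lgals3 (0.59), 0.35 ± 0.15 for S100a13 (0.54) and 0.41 ± 0.20 for Lgals1 (0.60). For S100a6 it was -0.13 ± 0.35 (0.94). So passing in Treg and not in Tconv is not shown to be a difference between the cell types for any member.

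Treg WT were then compared with Tconv WT. Of all genes, 18.1% passed (limma, adjusted p under 0.05), 10.0% as higher in Treg and 8.06% as lower. Of the 9 members, 0 were higher, 3 were lower (S100a4, S100a6 and Lgals3) and 6 did not pass. S100a6 had 158, 157, 171 and 190 normalized counts in Treg WT, against 317, 359 and 350 in Tconv WT, and its log2 fold change was -1.02 ± 0.26 (limma, adjusted p = 0.011). S100a4 had 191, 197, 203 and 203 in Treg WT, against 318, 370 and 329 in Tconv WT, with -0.77 ± 0.24 (limma, adjusted p = 0.039). Lgals3 had 11.6, 6.90, 14.5 and 16.8 in Treg WT, against 25.3, 23.2 and 28.9 in Tconv WT, with -1.05 ± 0.32 (limma, adjusted p = 0.030). All 3 genes were lower in every Treg WT library than in any Tconv WT library.

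The S100a6 call held in all 30 alternatives. S100a4 lost its call without any 1 of the 7 WT libraries (limma, adjusted p at most 0.13), although its log2 fold change stayed between -0.81 and -0.70. Lgals3 lost it without any of the 3 Tconv WT libraries or without Treg WT replicate 1 or 2 (adjusted p at most 0.11, limma). When libraries were thinned to the same depth, Lgals3 was at -0.67 (adjusted p = 0.33, limma) and S100a4 at -0.62 (0.091). With the trend on exon length removed S100a4 was at -0.74 (adjusted p = 0.072, limma). In all, S100a4 kept its call in 20 of 30 alternatives and Lgals3 in 22 of 29.

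S100a11 was also below Tconv WT in every Treg WT library, but its log2 fold change of -0.42 ± 0.29 did not pass (limma, adjusted p = 0.37). S100a10 and Lgals8 were above Tconv WT in every Treg WT library, with log2 fold changes of 0.31 ± 0.12 (limma, adjusted p = 0.083) and 0.20 ± 0.09 (0.14). S100a10 passed in 6 of 30 alternatives, among them those without Tconv KO replicate 1 (adjusted p = 0.035, limma) or 4 (0.047), which enter only through the shared estimate of the spread. Another of the 6 was a block for adjacent sample numbers (adjusted p = 0.034, limma). Groups that did not overlap were found for 6 of the 9 members, 2 with Treg above and 4 with Treg below, against 20.6% and 20.5% of all genes. Lgals1 at -0.10 ± 0.15, S100a13 at -0.19 ± 0.11 and Lgals9 at -0.03 ± 0.10 overlapped.

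Between Treg KO and Tconv KO, 31.4% of all genes passed (limma, adjusted p under 0.05), 15.8% as higher in Treg and 15.6% as lower. Of the members, 2 were higher in Treg KO, 1 was lower and 6 did not pass. S100a10 was higher, with values between 1557 and 1954 in Treg KO and between 983 and 1458 in Tconv KO and a log2 fold change of 0.51 ± 0.11 (limma, adjusted p = 0.0021). Lgals8 was higher by 0.31 ± 0.08 (limma, adjusted p = 0.0096), with values between 611 and 693 in Treg KO and between 446 and 603 in Tconv KO. S100a6 was lower by 2.21-fold, between 151 and 289 in Treg KO and between 308 and 799 in Tconv KO (log2 fold change -1.15 ± 0.24, limma, adjusted p = 0.0019). These 3 genes were those whose groups did not overlap, 2 with Treg above and 1 with Treg below, against 12.2% and 11.9% of all genes. Without replicate 1 of both KO groups the log2 fold changes were 0.54 for S100a10, 0.38 for Lgals8 and -1.04 for S100a6, and all 3 passed (limma, adjusted p at most 0.0040). Without Tconv KO replicate 1 alone, S100a6 was at -0.88 (adjusted p = 0.0020, limma).

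S100a4 had means of 571 ± 186 normalized counts in Treg KO and 543 ± 195 in Tconv KO (SD, n = 4 each), a log2 fold change of 0.08 ± 0.23 (limma, adjusted p = 0.83). In WT its means were 198 ± 6.00 in Treg and 339 ± 27.3 in Tconv (SD, n = 4 and 3). Lgals3 had means of 34.6 ± 5.30 in Treg KO and 40.3 ± 14.3 in Tconv KO (SD, n = 4 each), with -0.15 ± 0.29 (limma, adjusted p = 0.74). Lgals1 had means of 680 ± 116 in Treg KO and 551 ± 95.7 in Tconv KO, with 0.30 ± 0.14 (limma, adjusted p = 0.10). It passed in 4 of 30 alternatives, among them that without Tconv KO replicate 1, at 0.41 (adjusted p = 0.023, limma). Another of the 4 was a block for adjacent sample numbers, at 0.30 (adjusted p = 0.045, limma). The comparisons with Treg KO share these libraries with the genotype comparison, so they are not independent of it.

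**Figure D4:**
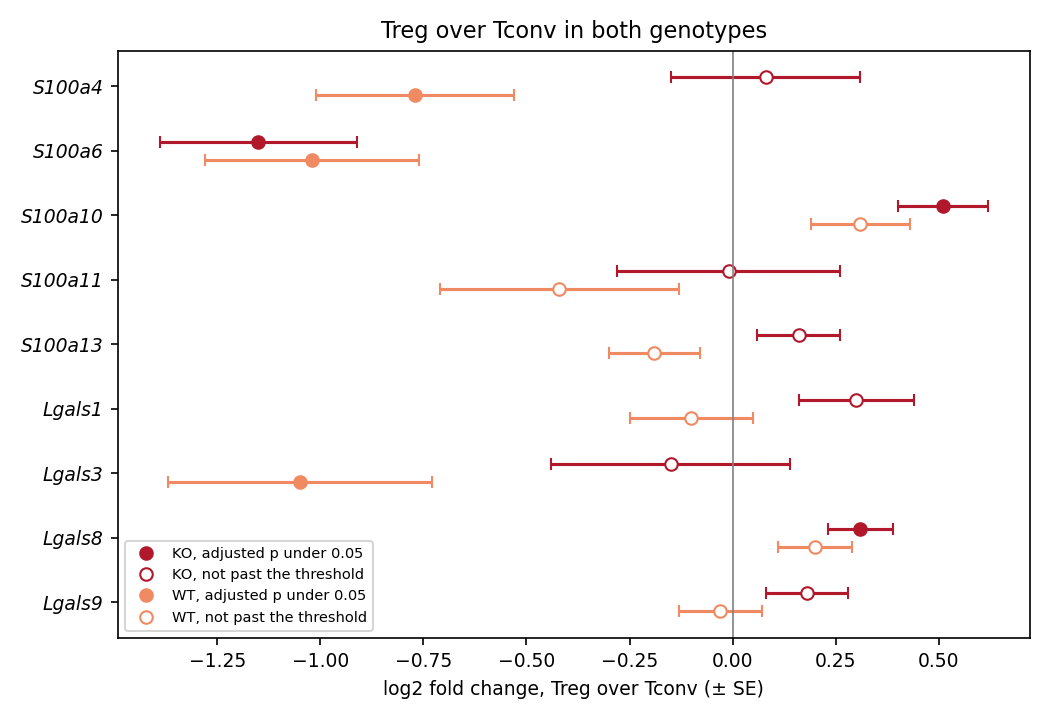
Log2 fold change of Treg over Tconv (x axis, on the log2(normalized count + 1) scale) for the 9 genes, within KO and within WT; bars are standard errors and filled points have an adjusted p under 0.05. S100a6 is below 0 in both genotypes (-1.15 in KO and -1.02 in WT), while S100a4 is at 0.08 in KO and -0.77 in WT.

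Genes related to the 9 members were mostly silent in these cells. Of 19 other S100 and galectin genes looked for, 17 were in the table and 3 reached the level needed for a test. None of the 12 other S100 genes did. The highest was S100a1 at 6.21 normalized counts, S100a8 and S100a9, the abundant S100 proteins of neutrophils, reached 2.67 and 1.45, and S100a5 and S100a16 had 0 reads in all 15 libraries. Lgals4, a galectin best known from gut epithelium, had 68.2, 77.6, 45.2 and 36.1 in Treg KO, against 104, 88.3, 110 and 108 in Treg WT, with a log2 fold change of -0.90 ± 0.20 (limma, adjusted p = 0.0066). Every KO library was lower. Lgals6 is a near-identical copy of Lgals4, so reads can be split between them. It had no single match in the GENCODE vM21 genes used here, and whether a separate gene gave its reads was not tested. It had 0, 1.21, 36.6 and 45.5 in Treg KO, against 11.6, 0, 0 and 0 in Treg WT. Summed, the copies had 68.2, 78.8, 81.9 and 81.6 in Treg KO, against 116, 88.3, 110 and 108 in Treg WT, and these still did not overlap, so the single values are uncertain and the sum is lower in KO by less. Lgalsl, a galectin-like gene, did not pass (0.48 ± 0.30; limma, adjusted p = 0.27). S100pbp, named as a binding protein of S100P, which is not a member here, was higher in Treg KO by 0.45 ± 0.11 (limma, adjusted p = 0.014). Lgals3bp, a secreted ligand of galectin-3, was at 0.30 ± 0.11 (adjusted p = 0.060, limma).

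Lists of partner genes were followed in the same fits. Of 24 tested binding partners of S100 proteins, 3 were higher and 1 lower in Treg KO than in Treg WT, with a median log2 fold change of 0.07 against 0.00 for all genes. These 4 of 24 stand beside 21.5% of all genes. DESeq2 passed 8 of the 24, beside 24.6% of all genes, and edgeR 4, beside 21.6%. Anxa5, a calcium-dependent membrane-binding annexin, averaged 554 ± 36.8 normalized counts in Treg KO and 401 ± 27.0 in Treg WT (SD, n = 4 each; log2 fold change 0.47 ± 0.07, limma, adjusted p = 5.6e-04). Lcp1 (plastin, an actin bundler) and Sept2 (a septin) were higher by 0.36 ± 0.08 and 0.28 ± 0.08. Ager, the gene of RAGE, averaged 43.0 ± 7.63 in Treg KO and 86.0 ± 11.8 in Treg WT (limma, adjusted p = 0.0029). Anxa2, named here because it pairs with S100a10, averaged 252 ± 86.9 in Treg KO and 143 ± 24.9 in Treg WT and did not pass (0.76 ± 0.30; limma, adjusted p = 0.081). It averaged 470 ± 211 in Tconv KO and 255 ± 29.9 in Tconv WT, again without passing (limma, adjusted p = 0.37). Between cell types Anxa2 ran opposite to S100a10, with a log2 fold change of -0.84 ± 0.30 in Treg KO against Tconv KO (limma, adjusted p = 0.044). In WT, 3 of the 24 partners (Sugt1, Anxa6 and Msn) were lower in Treg than in Tconv and 0 were higher, beside 8.06% and 10.0% of all genes.

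Of 24 tested galectin ligands and receptors, 5 were higher and 0 lower in Treg KO than in Treg WT (median 0.13), a share near the 21.5% of all genes. Cd44, the hyaluronan receptor of antigen-experienced T cells, averaged 1209 ± 121 in Treg KO and 803 ± 23.9 in Treg WT (0.59 ± 0.17; limma, adjusted p = 0.026). The integrin chain gene Itga4 was higher by 0.51 ± 0.16, and the disulfide isomerases Pdia4 and P4hb by 0.29 ± 0.09 and 0.17 ± 0.05. In Tconv, 1 of these 24 passed, beside 0.681% of all genes, the lysosomal gene Lamp1 at 0.29 ± 0.06 (limma, adjusted p = 0.047). Between Treg WT and Tconv WT 6 were higher and 2 lower, beside 10.0% and 8.06% of all genes. Il2ra and Tnfrsf9, which are Treg genes, led them. Of 25 tested enzymes that build or cap the sugars galectins bind, 3 were higher and 1 lower in Treg KO than in Treg WT. Man2a1 and Fut8, which act in N-glycan maturation, were higher by 0.43 ± 0.09 and 0.52 ± 0.13, C1galt1c1, the chaperone of O-glycan core synthesis, by 0.37 ± 0.11, and the galactosyltransferase gene B4galt3 was at -0.50 ± 0.16.

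Between Treg WT and Tconv WT 3 of the 25 enzymes were higher and 4 lower, beside 18.1% of all genes. Between Treg KO and Tconv KO 3 were higher and 5 lower, beside 31.4%. The 4 that passed between Treg KO and Treg WT stand beside 21.5%, and no share is read as particular to the enzymes. Mgat5, whose branched N-glycans are high-affinity galectin ligands, was at 236 ± 10.4 in Treg WT and 121 ± 9.36 in Tconv WT (SD, n = 4 and 3; 0.96 ± 0.15, limma, adjusted p = 3.2e-04). In KO it averaged 287 ± 39.3 in Treg and 152 ± 34.2 in Tconv. The sialyltransferase gene St3gal6 was at 11.6 ± 2.59 in Treg WT and 84.5 ± 1.37 in Tconv WT (-2.78 ± 0.19; limma, adjusted p = 5.9e-08). In KO it averaged 14.2 ± 0.837 in Treg and 141 ± 17.7 in Tconv. Of the mannosidase genes, Man2a2 was lower in Treg WT than in Tconv WT (-0.60 ± 0.08) and Man1a was higher (0.59 ± 0.08).

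Genes of effector and memory T cells were read beside the members, since several members are markers of such cells. Of 30 in the list, 6 were higher and 1 lower in Treg KO than in Treg WT, with a median of 0.55 against 0.00 for all genes. The 7 of 30 that passed are near the 21.5% of all genes. By DESeq2 13 of the 30 passed, beside 24.6% of all genes, and by edgeR 9, beside 21.6%. Id2, a transcriptional regulator of effector differentiation, was higher by 1.32 ± 0.22, Rora by 1.07 ± 0.23 and the chemokine receptor gene Ccr4 by 0.92 ± 0.17, while Itgb7, an integrin of gut homing, was at -0.35 ± 0.10. Of 16 genes of naive T cells, 1 was higher and 3 were lower, with a median of -0.48, and 4 of 16 is likewise near that background. Klf2, a factor of naive and recirculating T cells, averaged 495 ± 136 in Treg KO and 886 ± 133 in Treg WT, Igfbp4 428 ± 186 and 988 ± 188, and Bach2 594 ± 157 and 885 ± 35.7. Il7r, the 1 that was higher, was at 0.64 ± 0.21. In Tconv KO against Tconv WT 0 of the 30 effector genes passed by limma, 0 by edgeR and 1 by DESeq2. The shares of all genes there were 0.681% by limma, 0.822% by edgeR and 2.09% by DESeq2. Of the 16 naive genes 0 passed there by limma, edgeR or DESeq2. Whether the members' differences go with a shift between naive and effector cells within the sort was not tested.

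The genes whose pattern over the 15 libraries was most like that of each member are given as a description, since the libraries share group, genotype and depth. For S100a4 they were Slc39a6, Zfp367 and Racgap1 (Pearson r of 0.94, 0.92 and 0.91 on the log2 scale). For S100a6 they were Eomes, Heatr9 and Fasl (each 0.96), and for S100a10 Glrx, Pold3 and Aim2 (0.97, 0.96 and 0.96). S100a4 and S100a6 themselves correlated at 0.62 over the 15 libraries. For S100a11 they were Chst11, Mir22hg and Sorl1 (0.93, 0.9 and 0.9), and for S100a13 Zfp367, Zscan21 and Anxa5 (0.9, 0.9 and 0.89). For Lgals1 they were Ncapd2, Kifc3 and Tacc3 (0.95, 0.93 and 0.93), and for Lgals3 Prc1, Iqgap1 and Arhgap19 (0.9, 0.89 and 0.87). For Lgals8 they were Lrrn4, Secisbp2l and Atxn1l (0.94, 0.92 and 0.92), and for Lgals9 Usp3, Mdn1 and Afap1 (0.87, 0.83 and 0.82), the lowest of the 9.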

How the data were processed

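The authors sequenced RNA of sorted cells from 15 samples, with an Illumina TruSeq RNA kit per the labels' protocols. Per the submitters' processing notes, the tools include TopHat and the build is mm10; which version, counting program and annotation were used is not stated. The table deposited by the authors gives, per gene, a normalized signal, which is the gene count divided by a library's size factor. In each library the values are steps of a fixed size, and dividing by that step gave back the whole reads for 100% of values (tolerance 0.001).

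Values were fitted in limma 3.58.1 (R 4.3.3) as log2(value + 1), for 11314 genes with at least 10 in at least 3 libraries, with 4 group means over all 15 libraries and the spread moderated along a trend. Fold changes on this scale are understated for low genes. Tests were two-sided, p-values were adjusted (Benjamini-Hochberg) over all genes within each of 5 comparisons, and the threshold was 0.05. The fit was tested on simulated data. The 9 genes and all lists were chosen with earlier results of these data known. Beyond the 9 genes, the text names other members of both families, up to 4 genes per list with the smallest p, and the 3 genes with the closest pattern. Anxa2 and Lgals3bp were named for their known role and S100pbp for its name. Some markers of other cells were named beside the sum of their list. The labels name no animals, so Treg and Tconv samples entered as independent and p-values measure the spread between samples, which may be technical. Replicates were numbered in record order. Replicates of a group differed by more than counting noise, so none was merged.

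Alternatives were edgeR 4.0.16 and DESeq2 1.42.0 on the whole reads, other pseudocounts (8 and 0.1), other filters (none, or a mean of 50 or more), quantile and TMM normalization, the compared groups alone, library weights, a block for adjacent sample numbers, thinned reads, removal of trends on GC content or length, and each library left out. Leaving out replicate 1 of both KO groups together was added after seeing the data. Gene positions came from GENCODE vM21 (17338 of 17594 symbols matched) and promoter sequence from RefSeq. Figures were drawn with matplotlib 3.10.9.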

Additional observations from a re-analysis of the deposited data

Results flagged for a closer look

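Lgals6 had 11.6 normalized counts in Treg WT replicate 1 and 0 in the other 3 Treg WT libraries, a gap that stood apart by Dixon's criterion. With 3 libraries at 0, any read in the remaining library meets that criterion, so the usual rate of about 1 in 20 does not apply to it. It was the 1 such value among 36 groups of 4 libraries checked over 12 genes. Lgals6, which had no single match in the GENCODE vM21 genes, is a near-identical copy of Lgals4. Lgals4 had 104 in the same library, and reads split between the copies were not tested as the reason.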

How the results depend on the processing

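In Treg KO against Treg WT, S100a4, S100a10, S100a13 and Lgals1 passed in all 30 alternatives and Lgals3 in all 29 that tested it, a mean of at least 50 leaving Lgals3 out. In Tconv and in the interaction 0 members passed under any alternative. Between Treg WT and Tconv WT 3 members passed, but 1 without a filter, 1 with thinned reads, 6 with only the groups compared, 6 with library weights, and between 1 and 4 with a library left out. S100a4 lost its call there without a filter (adjusted p = 0.053, limma), and Lgals3 likewise (0.054). In Treg KO against Tconv KO, Lgals8 missed with only the groups compared (0.058, limma). Over all genes, the number passing ranged with a library left out from 1393 to 2743 in Treg KO against Treg WT, from 1407 to 2524 in Treg WT against Tconv WT, from 22 to 249 in Tconv and from 3 to 23 in the interaction, and over the other settings from 32 to 307 in Tconv and from 11 to 88 in the interaction. In Treg WT against Tconv WT 2046 genes passed. With only the groups compared 3990 did and with library weights 4330, the settings under which 6 members passed. Among settings other than leaving out 1 library, 1584 was the fewest. In Treg KO against Treg WT the settings gave 1633 to 2779, and in Treg KO against Tconv KO 2042 to 4560. The causes were not tested.

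Sign changes arose only in estimates that did not pass. S100a11 in Tconv KO against Tconv WT was at 0.10 (edgeR), 0.12 (DESeq2), 0.02 (thinned reads) and 0.18 (length trend removed), and between -0.34 and 0.25 with a library left out. S100a11 in Treg KO against Tconv KO was at 0.04 (library weights), 0.05 (thinned reads) and 0.14 (length trend removed), at 0.16 without Treg KO replicate 1 and Tconv KO replicate 1, and between -0.27 and 0.31 with a library left out. Lgals3 there was at 0.04 (library weights), and S100a4 between -0.10 and 0.29 with a library left out. The interaction was 0.06 for S100a6 (library weights; -0.32 to 0.14 with a library left out) and -0.01 for Lgals8 (thinned reads). Lgals9 in Treg WT against Tconv WT lay between -0.08 and 0.01 with a library left out.

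In the labels, consecutive sample numbers fall on 1 Treg and 1 Tconv library of a genotype. Deviations from the group means correlated between 0.21 and 0.54 in KO pairs and between 0.02 and 0.21 in WT pairs. The labels do not state whether such a pair shares an animal, and these values do not settle it. The block was therefore kept as an alternative, with a fitted correlation of 0.248. With the replicate block 5 members passed in Treg KO against Treg WT, S100a10 passed between Treg WT and Tconv WT (adjusted p = 0.034, limma) and Lgals1 between Treg KO and Tconv KO (0.045), and no other member's call changed. Fold changes of all genes in Treg KO against Treg WT correlated with GC content at -0.35. Depth limits Lgals3 most, at 71 reads in Treg WT.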
